A study of Rattus norvegicus with 6 samples.

Results

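Tnfsf10, which encodes the death ligand TRAIL, was read together with 7 genes of the death receptor and caspase pathways: the receptors Tnfrsf1a and Fas, the adaptor Fadd, the caspases Casp8 and Casp9, and the inhibitors Xiap and Cflar. The set was taken as every probe set that the platform annotation assigns to 1 of these symbols alone, which gave 15 of the 31042 non-control probe sets for the 8 genes. The genes were chosen with results of the same comparison in view, so their differences are given as a description, without p-values. For each one it is stated whether it passed in the fit over all probe sets (limma with an intensity trend, Benjamini-Hochberg adjusted p below 0.05, called passing below). A probe set was tested where its mean log2 signal over the 6 arrays reached the 40th percentile, a signal of 11.2. Of the 15 probe sets 9 were tested, covering 7 of the 8 genes, and no probe set of Fas was.

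The measured cells were GH4C1, a line from a rat pituitary tumour whose cells secrete prolactin and growth hormone. In 3 cultures a lentiviral vector carried POU1F1(R271W), a mutant, called dominant negative in the title, of a transcription factor of the pituitary, joined to an EGFP reporter. The other 3 cultures were controls, which per the design text received an EGFP vector without POU1F1. In both vectors the transgene was driven by the PGK promoter, cells were exposed to virus for 16 h at a multiplicity of infection of 5, and RNA was taken after 4 further days. Each culture was measured on 1 Affymetrix rat array as MAS5 signals on a linear scale, and the labels call the replicates biological without saying how separate the cultures were.

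In the extrinsic pathway of apoptosis a ligand such as TRAIL, Fas ligand or TNF binds a death receptor on the cell surface. The receptors of TRAIL and Fas ligand recruit the adaptor FADD, which gathers and activates the initiator caspase-8. The caspase-8 homologue cFLIP, the product of Cflar, competes for the same adaptor. In the intrinsic pathway damage to mitochondria activates caspase-9 on the apoptosome. XIAP binds and blocks active caspases downstream of both routes. TNF receptor 1, the product of Tnfrsf1a, signals mainly to NF-kB and to caspases only under some conditions.

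Start-site sequence was available for 6 of the 8 genes, as 300 bases of RefSeq sequence on the GRCr8 assembly, 250 before and 50 after the annotated start. The sequences of Tnfsf10 and Tnfrsf1a are shown because these genes passed as lower in R271W cells, and that of Cflar because it held the only match to a searched motif. Capitals mark a match to TATNCAT, a core of POU1F1 binding sites, or to the octamer ATGCAAAT, each searched on both strands. The windows are chr2:112136689-112136988 for Tnfsf10, chr4:159836869-159837168 for Tnfrsf1a and chr9:67679299-67679598 for Cflar, all on the plus strand.
Tnfsf10: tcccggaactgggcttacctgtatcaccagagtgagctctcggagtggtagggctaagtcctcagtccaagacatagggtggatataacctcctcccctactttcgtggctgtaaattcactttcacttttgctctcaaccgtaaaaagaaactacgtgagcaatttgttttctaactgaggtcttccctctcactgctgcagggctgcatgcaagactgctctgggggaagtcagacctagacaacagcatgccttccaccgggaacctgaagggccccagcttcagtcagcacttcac
Tnfrsf1a: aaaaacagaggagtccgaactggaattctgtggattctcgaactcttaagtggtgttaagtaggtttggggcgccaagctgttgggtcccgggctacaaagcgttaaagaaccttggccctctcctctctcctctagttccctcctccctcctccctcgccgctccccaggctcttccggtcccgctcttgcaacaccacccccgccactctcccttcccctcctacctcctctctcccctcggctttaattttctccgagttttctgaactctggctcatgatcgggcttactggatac
Cflar: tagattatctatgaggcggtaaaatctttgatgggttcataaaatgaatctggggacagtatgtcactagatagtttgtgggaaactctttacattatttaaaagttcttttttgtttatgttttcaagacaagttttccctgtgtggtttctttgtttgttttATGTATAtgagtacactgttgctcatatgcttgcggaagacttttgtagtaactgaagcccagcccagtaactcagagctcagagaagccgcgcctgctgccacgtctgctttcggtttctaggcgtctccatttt
The match in Cflar reads TATNCAT on the minus strand and begins 86 bases before the start. TATNCAT had a match in 9.88% and ATGCAAAT in 1.78% of the 33469 promoters of the table, so 1 match and 0 matches among 6 are counts too small to compare with these shares. The windows of Tnfsf10, Tnfrsf1a, Fas, Fadd and Casp9 held neither string, which says nothing of sites elsewhere.

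Among the 9 tested probe sets 2 passed as lower in R271W cells, those of Tnfsf10 and Tnfrsf1a, and 2 passed as higher, both of them Xiap. Over all 18625 tested probe sets 15.8% passed, 7.22% as lower and 8.57% as higher, and nothing is read from the count among genes chosen from this comparison. The groups did not overlap in 5 of the 9, against 33.9% of all tested probe sets. Across the 9 the median log2 difference was -0.34, against 0.07 over all tested probe sets. The arrays of the groups also differed as a whole: median signals ran from 25.5 to 26.9 on R271W arrays and from 22.4 to 22.9 on control arrays. The spiked hybridisation controls had a mean log2 signal 0.23 higher on R271W arrays. Signal at the 3' end of beta-actin was 1.86 to 2.06 times that at the 5' end on R271W arrays and 1.81 to 1.83 times on control arrays. The part of these offsets in the differences below was not tested beyond the scaling alternatives given with each gene.

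**Figure D1:**
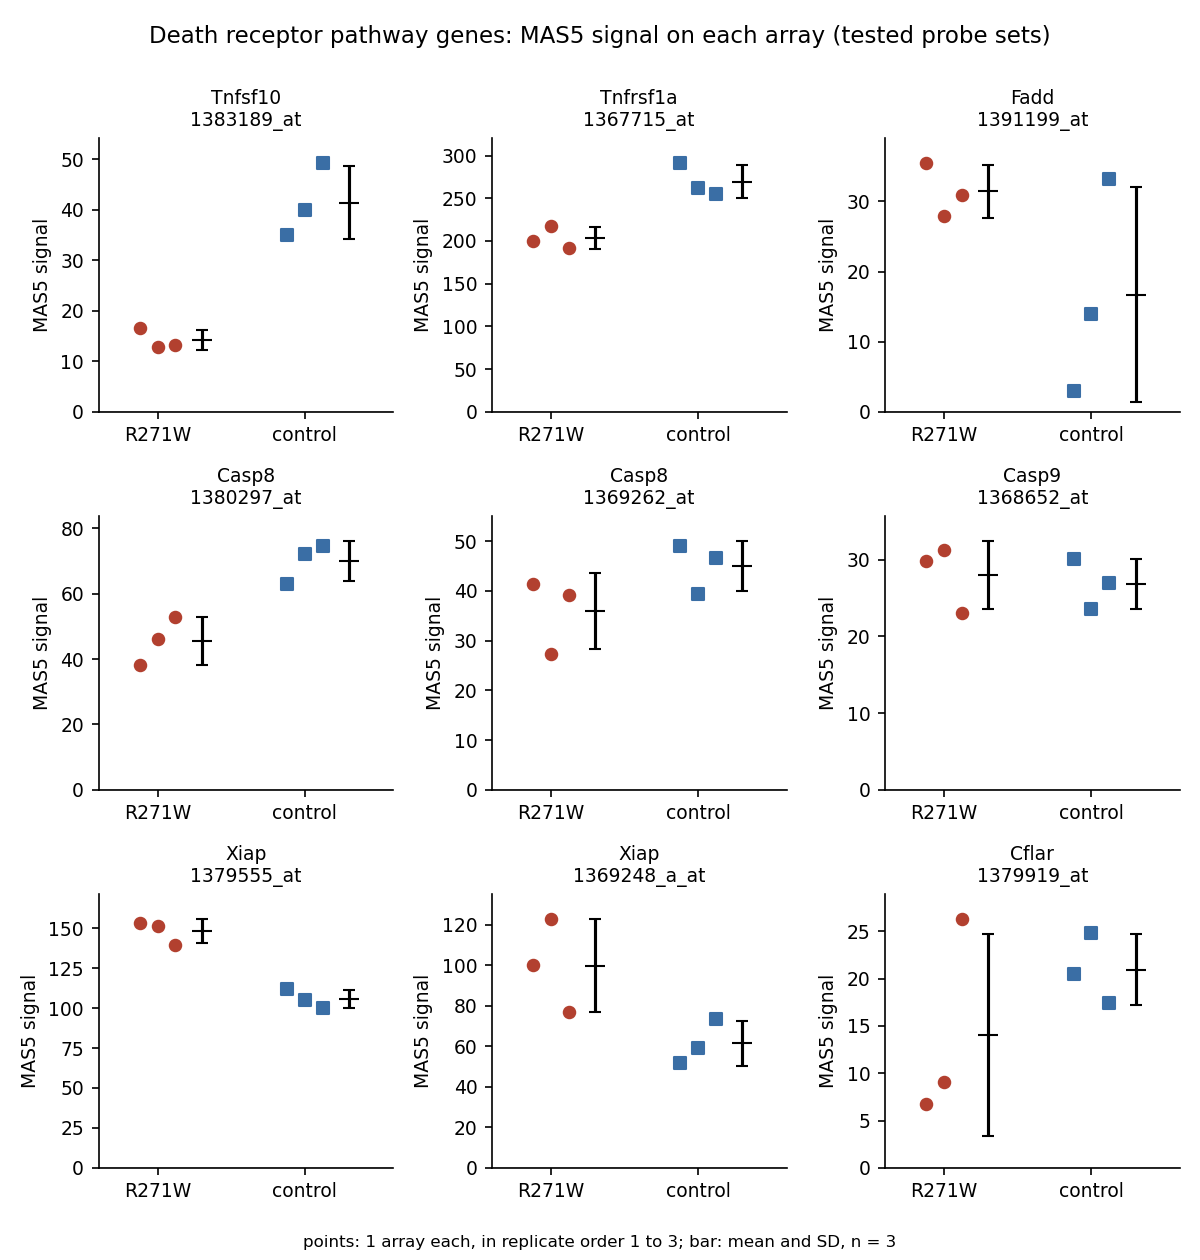
MAS5 signal (linear scale, arbitrary units) of the 9 tested probe sets, with 1 point per array, R271W cultures in red circles on the left and control cultures in blue squares on the right. Bars show the mean and SD of 3 arrays. Tnfsf10, Tnfrsf1a and 1 Casp8 probe set lie lower on every R271W array, both Xiap probe sets lie higher, and Fadd, Casp9, Cflar and the other Casp8 probe set overlap.

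Tnfsf10 had the largest log2 difference among the 5 tested probe sets whose groups did not overlap. Its signals were 16.6, 12.8 and 13.3 on the R271W arrays, against 34.9, 40.1 and 49.3 on the control arrays. Every R271W array lay below the lowest control value, and the R271W values were close to the signal filter of 11.2. TRAIL transcript thus fell to 14.2 ± 2.06 in R271W cells, against 41.4 ± 7.26 in control cells (SD, n = 3 each). In log2 terms the difference was -1.54 (SE 0.35, 95% interval -2.28 to -0.79), which is 0.345 of the control level. A smaller number of cells with the transcript and less transcript per cell cannot be told apart in RNA from whole cultures.

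The difference of Tnfsf10 ran from -1.73 with median centring of the arrays to -1.32 with a signal of 3.72 added before taking logs. It passed under 13 of the 14 alternatives in which it was tested, and did not pass without control replicate 3, where it read -1.40. With a filter at the 60th percentile it was not tested. By the root mean square difference of log2 signals, each centred on its control mean and taken over the 6 arrays, the genes with the profile most like that of Tnfsf10 were Mmd (0.17), Ezr (0.21), Pdp2 (0.21), Igfbp3 (0.21) and Fosl2 (0.22). The median of this measure over all other genes with a tested probe set of 1 symbol, each at its most like probe set, was 1.13. The 5 were picked as the closest of all these genes, so their distance from that median follows from the choice. These 5 genes had log2 differences of -1.53, -1.32, -1.65, -1.68 and -1.38 in that order.

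The receptor genes differed in how well the arrays measured them. Tnfrsf1a, the gene of TNF receptor 1, read 200, 218 and 192 on the R271W arrays and 291, 262 and 255 on the control arrays. No R271W array reached the lowest control value. The level fell to 203 ± 13.1 in R271W cells, against 269 ± 19.4 in control cells (SD, n = 3 each), a log2 difference of -0.40 (SE 0.11, interval -0.63 to -0.18). It was -0.60 under median centring and -0.43 under quantile normalization. Tnfrsf1a passed under 12 of 15 alternatives, and did not pass without the intensity trend, without R271W replicate 3 (-0.36) or without control replicate 1 (-0.35).

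Fas, which encodes the receptor of Fas ligand, was dim on all 3 of its probe sets. The brightest read 1.09, 9.76 and 2.16 on R271W arrays and 8.76, 1.10 and 5.21 on control arrays. A second read 0.892, 0.844 and 2.04 on R271W arrays and 4.63, 1.01 and 5.13 on control arrays, and the dimmest lay between 0.393 and 2.22 on all 6. The groups overlapped on each of them. With no signal filter the log2 differences were -0.38, -1.32 and -0.53, with intervals from -3.78 at the lowest to 2.25 at the highest, so neither a rise nor a fall of several-fold was detectable at these signals.

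**Figure D2:**
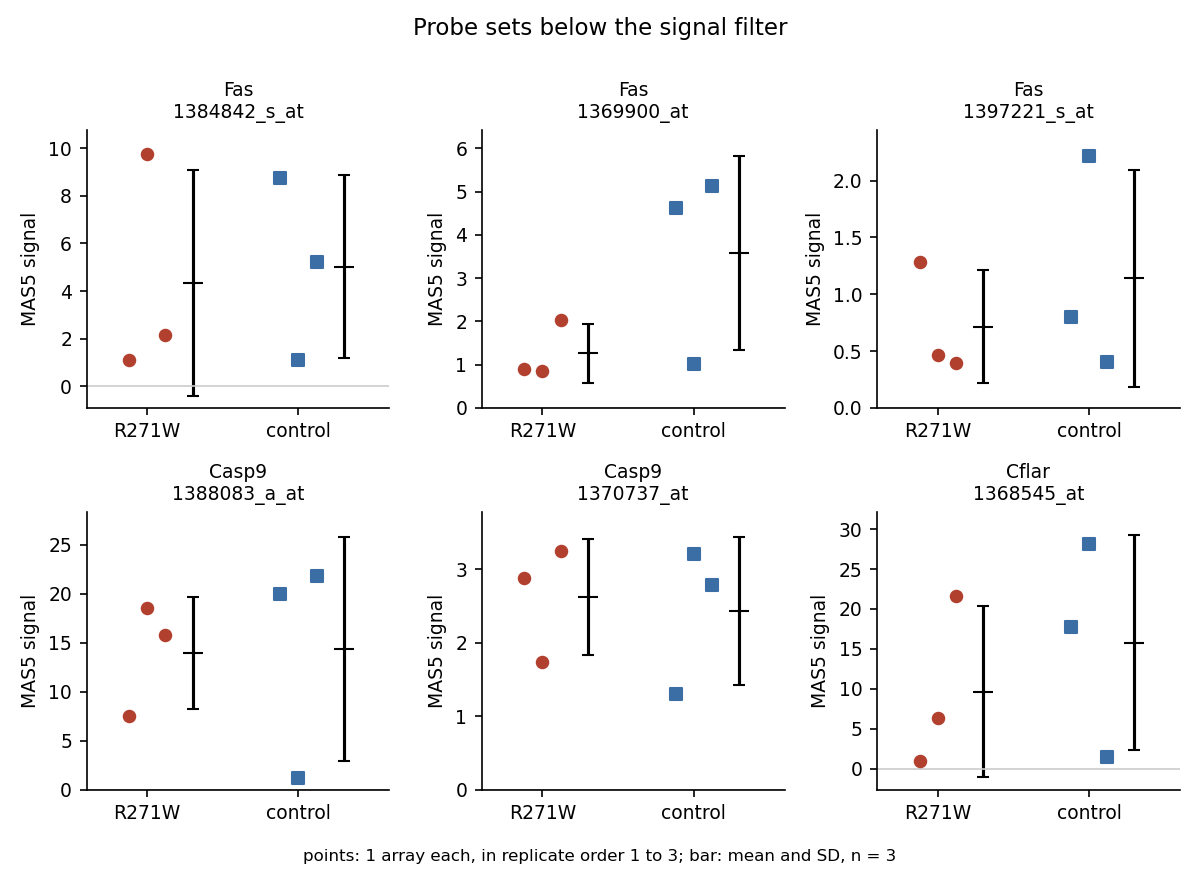
MAS5 signal (linear scale, arbitrary units) of the 6 probe sets below the signal filter, 3 of Fas, 2 of Casp9 and 1 of Cflar. Each point is 1 array, R271W in red circles on the left and control in blue squares on the right, with the mean and SD of 3 arrays. The groups overlap on every one of the 6, and the first Fas probe set runs from 1.09 to 9.76 within the R271W arrays alone.

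Fadd, the adaptor shared by TRAIL and Fas receptors, read 35.5, 27.9 and 30.9 on the R271W arrays and 2.93, 14.0 and 33.2 on the control arrays. The R271W arrays lay close together, while the control arrays were far apart and 1 of them lay above 2 R271W arrays. The log2 difference was 1.50 (SE 0.69, interval 0.01 to 2.98), and it did not pass. It was 0.54 without control replicate 1, and it passed without control replicate 3, where it was 2.29.

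Casp8, which encodes the initiator caspase-8, was measured by 2 probe sets that both read lower in R271W cells without passing. The brighter one gave 38.1, 46.1 and 52.7 on R271W arrays and 62.9, 72.2 and 74.5 on control arrays. These groups did not overlap, with means of 45.6 ± 7.32 in R271W cells and 69.9 ± 6.14 in control cells (SD, n = 3 each). Its log2 difference was -0.62 (SE 0.21, interval -1.07 to -0.18), and it passed under 5 of 15 alternatives. The 5 were quantile normalization (-0.77), median centring (-0.82), 75th percentile centring (-0.71), the filter at the 60th percentile (-0.62) and leaving out R271W replicate 3 (-0.73). The second probe set overlapped between the groups, with 41.4, 27.2 and 39.2 on R271W arrays and 49.1, 39.4 and 46.6 on control arrays. Its log2 difference was -0.34 (interval -0.91 to 0.22), and it passed under none of the 14 alternatives in which it was tested.

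Cflar, whose product cFLIP resembles caspase-8 and limits its activation, was dim and scattered. The tested probe set read 6.79, 9.04 and 26.3 on R271W arrays and 20.5, 24.9 and 17.4 on control arrays. R271W replicate 3 was above every control array, whereas the other 2 R271W arrays were below all of them. The log2 difference was -0.82 (SE 0.57, interval -2.04 to 0.40) and did not pass. Leaving out R271W replicate 3 made it -1.40 and leaving out R271W replicate 1 made it -0.43, with neither passing. A dimmer probe set that was not tested again had its highest R271W signal on replicate 3, with 0.953, 6.28 and 21.6 on R271W arrays and 17.7, 28.1 and 1.39 on control arrays.

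Casp9, the gene of the apoptosome caspase, had nearly equal levels in both groups on its tested probe set. It read 29.8, 31.2 and 23.0 on R271W arrays and 30.1, 23.6 and 26.9 on control arrays. The ranges lay on top of each other. The log2 difference was 0.05 (SE 0.32, interval -0.63 to 0.74); that interval holds sizeable changes in either direction. Its sign turned under quantile normalization (-0.15), median centring (-0.14) and 75th percentile centring (-0.029), and without R271W replicate 2 (-0.031) or control replicate 2 (-0.036). The other 2 probe sets were below the filter, at 1.73 to 18.5 on R271W arrays and 1.22 to 21.8 on control arrays.

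Xiap, which encodes the caspase inhibitor XIAP, rose on both probe sets with the deposited scaling. The brighter one read 153, 152 and 139 on R271W arrays and 112, 105 and 100 on control arrays. All R271W arrays lay above all control arrays, with 148 ± 7.58 in R271W cells and 106 ± 5.75 in control cells (SD, n = 3 each), a ratio of 1.40. The other probe set gave 100, 123 and 76.7 on R271W arrays and 51.6, 59.4 and 73.6 on control arrays. Here too the groups did not overlap, though the lowest R271W array was close to the highest control array.

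The log2 differences of Xiap were 0.49 (SE 0.13, interval 0.21 to 0.76) on the brighter probe set and 0.69 (SE 0.21, interval 0.24 to 1.13) on the other. Median centring moves the median of all log2 differences by -0.20, and the Xiap differences then became 0.29 and 0.49, positive but not passing. The brighter probe set passed under 9 of 15 alternatives, and did not pass under median centring, without the intensity trend, or without R271W replicate 1, R271W replicate 2, control replicate 2 or control replicate 3. The other probe set passed under 6 of 15. It passed under none of the 3 other scalings, where it read 0.57 with quantile normalization, 0.49 with median centring and 0.60 with 75th percentile centring. Nor did it pass with the replicate block, without the intensity trend, or without R271W replicate 1, R271W replicate 2, control replicate 1 or control replicate 2.

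**Figure D3:**
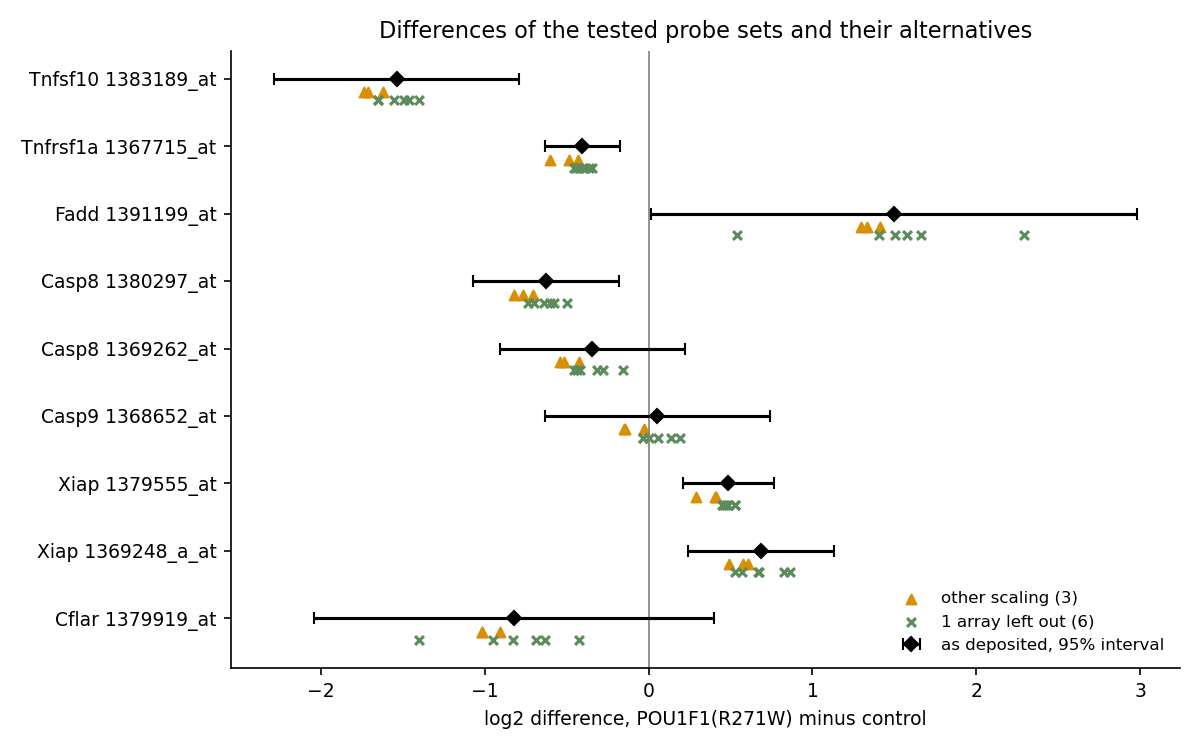
Log2 difference of signal, POU1F1(R271W) minus control, for the 9 tested probe sets. Black diamonds and bars give the value with the deposited scaling and its 95% interval, triangles the 3 other scalings, and crosses the 6 fits with 1 array left out. The values of Tnfsf10, Tnfrsf1a, Casp8 and Cflar stay below 0 and those of Xiap and Fadd above 0 in every fit drawn. The dimmer Casp8 probe set reaches -0.15 and the brighter Xiap probe set 0.29, while Casp9 falls on either side of 0. The 95% intervals of Cflar, Casp9 and the dimmer Casp8 probe set include 0.

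To place these genes, 106 other genes of the pathway were listed by role and read on their brightest probe set. Of these 82 had a probe set with 1 symbol, 58 were tested, and 24 lay below the signal filter. The remaining 24, Tnfrsf10b among them, are not analysed here. By limma 0 of the 58 rose and 2 fell, which is 3.45%, against 18.9% of 10143 genes over the whole array (9.87% higher and 8.98% lower). The genes described above, chosen with results of this comparison in view, are not in the lists. Their absence takes genes that passed out of this share, so nothing is read from its size. At an unadjusted p below 0.05 there were 10 higher and 4 lower, against 1874 and 1517 of all genes. The groups did not overlap in 14 of the 58, against 37.7% of all genes. The median log2 difference over the 58 was 0.01, against 0.06 over all genes.

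Of 17 ligand genes 11 had a probe set with 1 symbol and 4 were bright enough to test, and none of the 4 passed (limma, 0 also at an unadjusted p below 0.05). Tnfsf12, the gene of TWEAK, had 21.7 ± 5.56 in R271W cells and 12.2 ± 6.55 in control cells (SD, n = 3 each), with a log2 difference of 0.92 and a limma adjusted p of 0.269. Tnfsf13, the gene of APRIL, had a difference of 1.08 (adjusted p = 0.338), and its dimmer probe set read -0.57 without being tested. Faslg, which encodes Fas ligand, read 0.29 (adjusted p = 0.715) and Tnfsf9 -0.25 (adjusted p = 0.833). Tnf and Lta were below the filter.

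Among 24 receptor genes 5 were tested, 1 fell and 0 rose, where 8.98% of all genes fell and 9.87% rose. Ltbr, the gene of the lymphotoxin beta receptor, read 335, 345 and 328 on R271W arrays and 417, 398 and 439 on control arrays. All R271W arrays were below all control arrays, with a log2 difference of -0.31 (SE 0.09, limma adjusted p = 0.0257). Its adjusted p rose above 0.05 when any single array other than control replicate 2 was left out (0.0527 to 0.102), with the replicate number as a block (0.0578) and without the intensity trend (0.11). Tnfrsf12a, the TWEAK receptor gene, had a difference of -0.26 (adjusted p = 0.371), Tnfrsf21, the gene of death receptor 6, of 0.16 (adjusted p = 0.496) and Relt of -0.47 (adjusted p = 0.653).

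Among adaptors and complex proteins 21 of 25 genes were tested, the largest number of any list, and 0 passed by limma. At an unadjusted p below 0.05 there were 6 higher and 0 lower of these 21 genes, against 1874 and 1517 of all 10143 genes. Ripk1, the kinase that TNF receptor 1 recruits, read 90.9, 83.6 and 92.2 on R271W arrays and 66.2, 55.5 and 67.7 on control arrays. Its groups did not overlap, and its log2 difference was 0.50 (adjusted p = 0.0639). On the dimmer tested probe set of Ripk1 the groups overlapped, with a difference of 0.31 (adjusted p = 0.533). Traf6, a ubiquitin ligase of TNF and interleukin receptor signalling, differed by 0.37 (adjusted p = 0.0846), Rbck1, a subunit of the linear ubiquitin ligase LUBAC, by 0.32 (adjusted p = 0.0831) and Dedd, a death effector domain protein, by 0.31 (adjusted p = 0.0912). The other tested Traf6 probe sets all overlapped between the groups and differed by 0.08, 0.13 and 0.76. The dimmer Dedd probe set did not overlap and differed by 0.69 (adjusted p = 0.268). The median of the list was 0.16, on arrays where the median of all genes was 0.06. That list median was 0.01 with quantile normalization and -0.04 with median centring. The unadjusted counts are given for the deposited scaling alone.

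Other caspases gave 3 tested genes of 8, none of which passed by limma. At an unadjusted p below 0.05 there were 1 higher and 1 lower, against 1874 and 1517 of all 10143 genes. Counts among 3 genes are too small to compare with these. Casp6, an executioner caspase gene, read 42.6, 31.0 and 33.3 on R271W arrays and 19.7, 3.02 and 26.0 on control arrays. Casp4, an inflammatory caspase gene, read 20.8, 17.8 and 1.83 on R271W arrays and 25.1, 33.3 and 28.0 on control arrays. In both genes the groups did not overlap, but 1 array set much of the size. The log2 difference of Casp6 was 1.61 (adjusted p = 0.117), or 0.64 without control replicate 2, and that of Casp4 was -1.70 (adjusted p = 0.157), or -0.57 without R271W replicate 3. Casp2, the brightest of the 3, had a difference of 0.15 (adjusted p = 0.357). Its second tested probe set did not overlap between the groups, with 164, 173 and 152 on R271W arrays and 128, 137 and 118 on control arrays, and differed by 0.35 (adjusted p = 0.0761). Over the 6 lists 9 genes had several tested probe sets, and with the deposited scaling the differences of all 9 had the same sign on each.

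In the list of the apoptosome, IAP antagonists and execution proteins 9 of 12 genes were tested and 0 passed (limma, 0 also at an unadjusted p below 0.05), and their median log2 difference was -0.06. Those with the smallest p were Aifm1 at 0.23 (adjusted p = 0.457), Htra2 at -0.11 (adjusted p = 0.54), Bid at 0.17 (adjusted p = 0.54) and Dffa at -0.22 (adjusted p = 0.67). Bid, which caspase-8 cleaves to reach the mitochondrial route, had 84.1 ± 2.95 in R271W cells and 74.9 ± 8.46 in control cells (SD, n = 3 each).

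In the NF-kB list 16 of 20 genes were tested, 1 fell and 0 rose, where 8.98% of all genes fell and 9.87% rose. Nfkbia, which encodes the inhibitor IkB-alpha and is itself a transcriptional target of NF-kB, read 167, 161 and 212 on R271W arrays and 273, 238 and 230 on control arrays. No R271W array reached the lowest control array, and the log2 difference was -0.46 (SE 0.13, limma adjusted p = 0.0254). That call ended, by its adjusted p, without R271W replicate 1 (0.0776), R271W replicate 2 (0.102), control replicate 1 (0.107) or control replicate 2 (0.0543), and without the intensity trend (0.124). Tnip1, a partner of the deubiquitinase A20, had a difference of 0.41 (adjusted p = 0.06), Chuk, an IkB kinase gene, of -0.21 (adjusted p = 0.133) and Rela, an NF-kB subunit gene, of 0.30 (adjusted p = 0.161).

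**Figure D4:**
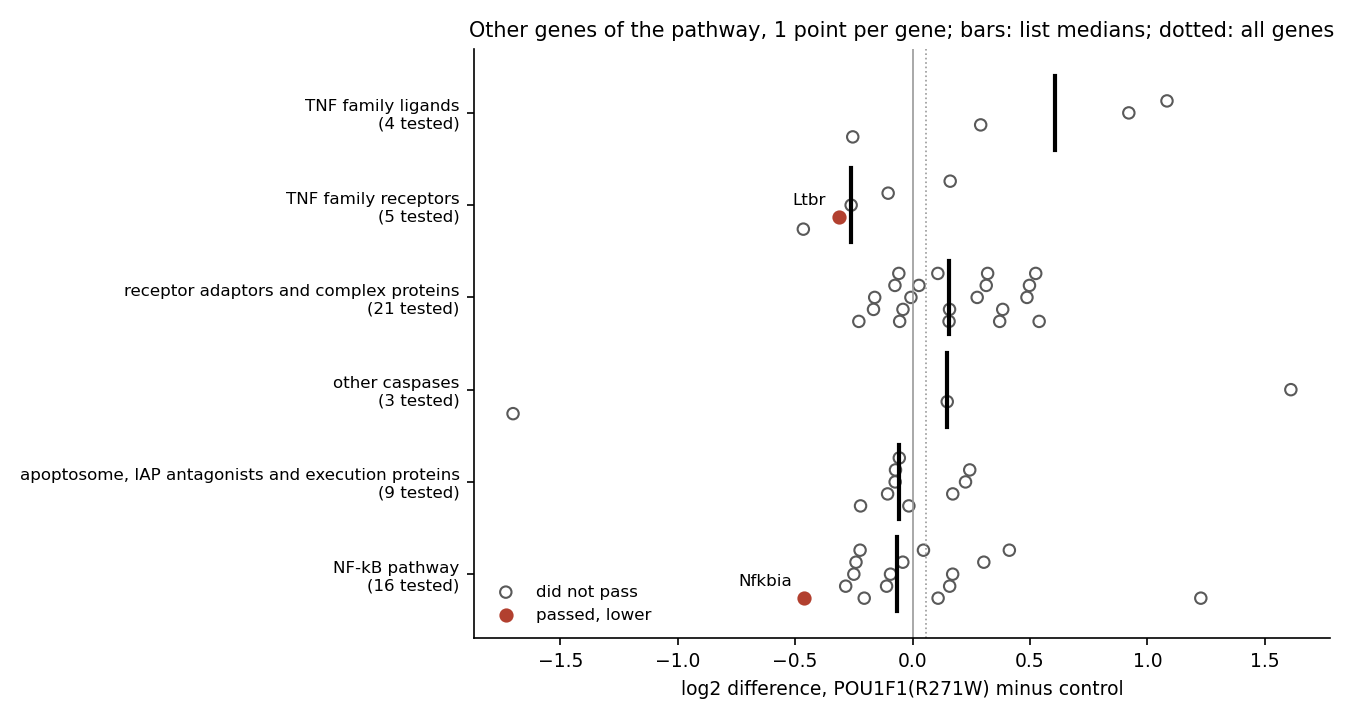
Log2 difference of signal, POU1F1(R271W) minus control, for the 58 tested genes of 6 pathway lists, with 1 point per gene on its brightest probe set. Filled points passed, open points did not, black bars are list medians and the dotted line is the median of all 10143 genes. Ltbr and Nfkbia are the 2 filled points, both lower, and Casp6 and Casp4 lie farthest out without passing.

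Among the markers listed for pituitary somatolactotrophs, Gh1, the growth hormone gene, read 6338 ± 867 in R271W cells and 6443 ± 348 in control cells, without passing (SD, n = 3 each). Prl, the prolactin gene, was lower, with 3175 ± 171 in R271W cells and 4332 ± 188 in control cells, and so was Pou1f1, with 1836 ± 86.2 in R271W cells and 2301 ± 90.1 in control cells (both passed). Whether this Pou1f1 probe set also reads the POU1F1(R271W) transgene was not tested. Chgb, a granin of endocrine cells in general, was higher, with 3815 ± 94.0 in R271W cells and 2779 ± 145 in control cells (passed). Because these genes moved in opposite directions, their summed signal, 14400 to 16190 on R271W arrays and 15580 to 16410 on control arrays, does not show their changes.

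Immune cells are rich in TRAIL and Fas, and macrophage markers summed to 38.0 to 58.1 on R271W arrays and 41.7 to 70.4 on control arrays, with 1 of 5 above the filter. T cell markers, 0 of 4 above the filter, summed to 19.3 to 28.3 on R271W arrays and 9.73 to 28.6 on control arrays. Among them Cd3e (11.8 ± 2.11 in R271W cells, 1.45 ± 1.14 in control cells) and Cd3d separated the groups opposite to Tnfsf10, and Cd3g in the same direction as Tnfsf10. Fibroblast markers, likewise 0 of 4 above the filter, summed to 10.9 to 19.9 on R271W arrays and 30.7 to 39.3 on control arrays. Of these Pdgfra alone separated the groups, with 3.52 ± 1.21 in R271W cells and 13.1 ± 2.00 in control cells (SD, n = 3 each), while Col1a1, Col1a2 and Lum overlapped. Over all 31042 non-control probe sets, tested or not, 24.5% did not overlap between the groups. Nothing about cell types is read from the separation of these dim T cell and fibroblast markers. The sample titles name GH4C1 cells alone, and marker signals this dim do not show that immune cells or fibroblasts were present. A part of such cells in the Tnfsf10 difference was not tested.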

How the data were processed

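RNA of 6 GH4C1 cultures was hybridised to 1 Affymetrix rat array each, per the labels' protocols. The deposited intensity values are MAS5 signals, 1 per probe set on a linear scale, per the submitters' processing notes. Which MAS5 version and background settings were used is not given in the sources used here. On each array the mean signal was 100.0 once 2% was trimmed at either end, which is how MAS5 scaling ties dim signals to bright ones.

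Groups were taken from the sample titles. Signals were taken to log2 without further scaling and fitted in R 4.3.3 by limma 3.58.1, using lmFit and trended eBayes on group with two-sided tests, and p-values were adjusted by Benjamini-Hochberg over 18625 probe sets. The 57 control probe sets were left out. Symbols came from the platform annotation, checked by Entrez ID against a RefSeq gene table, with 0 changed; 20826 probe sets had 1 symbol and 436 several. A pathway gene was read on its brightest probe set. The members, lists and naming rules were chosen with earlier results of these data known. Named were the 8 genes, up to 4 tested genes with the smallest p in each of 6 lists, and the 5 genes most like Tnfsf10; Tnf, Lta and Tnfrsf10b were added to say what was not tested. The fit was tested on simulated data. Correlations of same-numbered arrays between the groups, after removing group means, were -0.0016, 0.0101 and -0.0201, so the replicate numbers were not taken as pairs. Plots used matplotlib 3.10.9 under Python 3.11.15. With 3 arrays a group, precision is limited by their number.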

Additional observations from a re-analysis of the deposited data

How the results depend on the processing

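Alternatives were 3 other scalings, 2 filters, a floor or an offset at a signal of 3.72, no intensity trend, a replicate block, gene means over probe sets, and leaving out each array. The 1596 higher and 1344 lower probe sets became 730 and 3132 with median centring and 634 and 431 without the trend, and ran from 1000 to 1346 and from 945 to 1327 with 1 array left out, the lowest count of higher ones falling without R271W replicate 2. The higher share of calls was 54.3% as deposited, 50% with quantile normalization, 36.9% with 75th percentile centring and 18.9% with median centring. Pathway genes that rose, 0 as deposited, numbered 1 with the filter at the 60th percentile (Tnip1), 1 with gene means, and 0 to 2 with 1 array left out. Those that fell, 2 as deposited, numbered 5 with median centring, 0 without the trend, and 0 to 1 with 1 array left out. With the replicate block 1336 probe sets were higher and 1143 lower, 1 pathway gene fell, and 1 Xiap probe set no longer passed. Median centring gave -0.60 for Tnfrsf1a, -0.82 for the brighter Casp8 probe set and 0.29 for the brighter Xiap probe set, which read 0.40 with 75th percentile centring. It turned the uncalled differences of Tnfrsf21 (-0.038), Casp2 (-0.051) and Bid (-0.027). Leaving out 1 array moved uncalled differences across 0 for Casp9 (-0.036 to 0.19), Tnfsf9 (-0.56 to 0.20), Relt (-0.98 to 0.50) and Dffa (-0.47 to 0.084). Beyond fewer samples or probe sets where an alternative removes them, the cause was not tested. Signals near or below the filter, as for Tnfsf10 in R271W cells, Fadd on some control arrays, Cflar and Fas, limit what these arrays can show.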
